A study of Mus musculus with 2 samples.

Results

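The endothelin system was followed through 7 genes, chosen by symbol: the ligand genes *Edn1*, *Edn2* and *Edn3*, the converting enzyme genes *Ece1* and *Ece2*, and the receptor genes *Ednra* and *Ednrb*. All 7 were found once among the 31055 features of both count matrices. The cells were GFP-positive pituitary cells of Sox9iresGFP/+ mice at postnatal day 3, sorted by fluorescence and profiled with a droplet 3′ kit that counts unique molecular identifiers (UMIs). There was 1 library from 3 pooled male pituitaries and 1 library from 3 pooled female pituitaries. Both sexes carried the same heterozygous reporter allele, from which GFP is made where *Sox9* is transcribed. The study states that GFP outlasts SOX9, so that the sorted fraction holds stem cells and their recent progeny. Cell shares are therefore shares of the sorted fraction, not of the gland, and sex cannot be told apart from the animals, the sort or the library preparation. No p-value is given, since each sex is 1 sample.

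Endothelins are short peptides with paired disulphide bridges. They are made as long precursors that furin-like proteases cut to inactive big endothelins, which the membrane metalloproteases ECE1 and ECE2 then cut to the mature peptide. EDNRA and EDNRB are G protein-coupled receptors. EDNRA prefers endothelin-1 and endothelin-2 to endothelin-3 and drives contraction in vascular smooth muscle, whereas EDNRB binds all the endothelins about equally and, with endothelin-3, is needed for enteric neurons and melanocytes to form.

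The coding stretches of the mature peptides are given because they are the products by which a source cell could address each receptor. They are written 5′ to 3′ from the GENCODE vM21 transcripts (mm10), 63 bases for 21 residues, with the 4 cysteine codons in capitals.
Edn1: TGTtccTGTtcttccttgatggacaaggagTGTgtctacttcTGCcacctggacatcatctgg
Edn2: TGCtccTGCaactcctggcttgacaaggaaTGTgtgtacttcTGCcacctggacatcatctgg
Edn3: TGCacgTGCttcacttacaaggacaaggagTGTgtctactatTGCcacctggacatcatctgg

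The stretches of *Edn1* and *Edn2* were the closest, with 53 of 63 bases and 18 of 21 encoded residues the same. *Edn3* shared 50 bases with *Edn1* and 48 with *Edn2*, and 15 residues with each. The last 6 codons encoded the same residues in all the ligands. In mm10, *Edn1* lies on chromosome 13 from 42301476 to 42307990, *Edn2* on chromosome 4 from 120161206 to 120167360 and *Edn3* on chromosome 2 from 174760619 to 174784042, all on the plus strand. *Ece1* lies on the plus strand of chromosome 4 from 137862237 to 137965229 and *Ece2* on the plus strand of chromosome 16 from 20629828 to 20646485. The receptor genes lie on the minus strand, *Ednra* on chromosome 8 from 77663031 to 77724464 and *Ednrb* on chromosome 14 from 103814625 to 103844402.

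After filtering, the male library held 10410 cells with a median of 8902 UMIs and the female library 5711 cells with a median of 9789. Cells were placed in classes by raw UMIs of marker genes, none of them an endothelin gene. SC-like cells (stem cell-like, from *Sox2*, *Sox9* and other markers, with no *Lef1*) numbered 3101 male and 3304 female ones. Differentiating-like cells, which carry *Lef1* and genes such as *Smoc2* or *Dll1*, numbered 1312 and 851. The endocrine classes were gonadotroph-like (575 and 95 cells), POU1F1-lineage-like (664 and 255) and melanotroph-like (253 and 109), and mesenchymal-like cells numbered 564 and 297. Pericyte-like cells were few, at 29 and 7, and pituicyte-like cells, the glia of the posterior lobe, were found 11 times in the male library and not at all in the female library. A further 172 and 34 cells had markers of several classes, and 3729 and 759 cells met no class. The submitters' label for every sample is stem cell, and the markers show that the sort also held endocrine and mesenchymal cells. Endothelial cells, the best known source of endothelin-1, were nearly absent, with 4 and 2 cells that had at least 3 of 6 endothelial markers. A total of 19 cell barcodes occurred in both libraries.

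A level is the sum of a gene's UMIs in all cells of 1 class and library, scaled to 1000000 UMIs of the same cells (CPM) and given with its 95% interval from the exact Poisson distribution. Shares of cells are given after each cell was thinned to 5000 UMIs, with exact 95% binomial intervals. Intervals and ratio limits cover counting error only, not differences between animals. For each of the 7 genes the same class had the highest measured level in both libraries when classes with at least 50 cells in both were compared: SC-like cells for *Edn1*, *Edn2*, *Ece1* and *Ednrb*, mesenchymal-like cells for *Edn3* and *Ednra*, and melanotroph-like cells for *Ece2*.

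**Figure D1:**
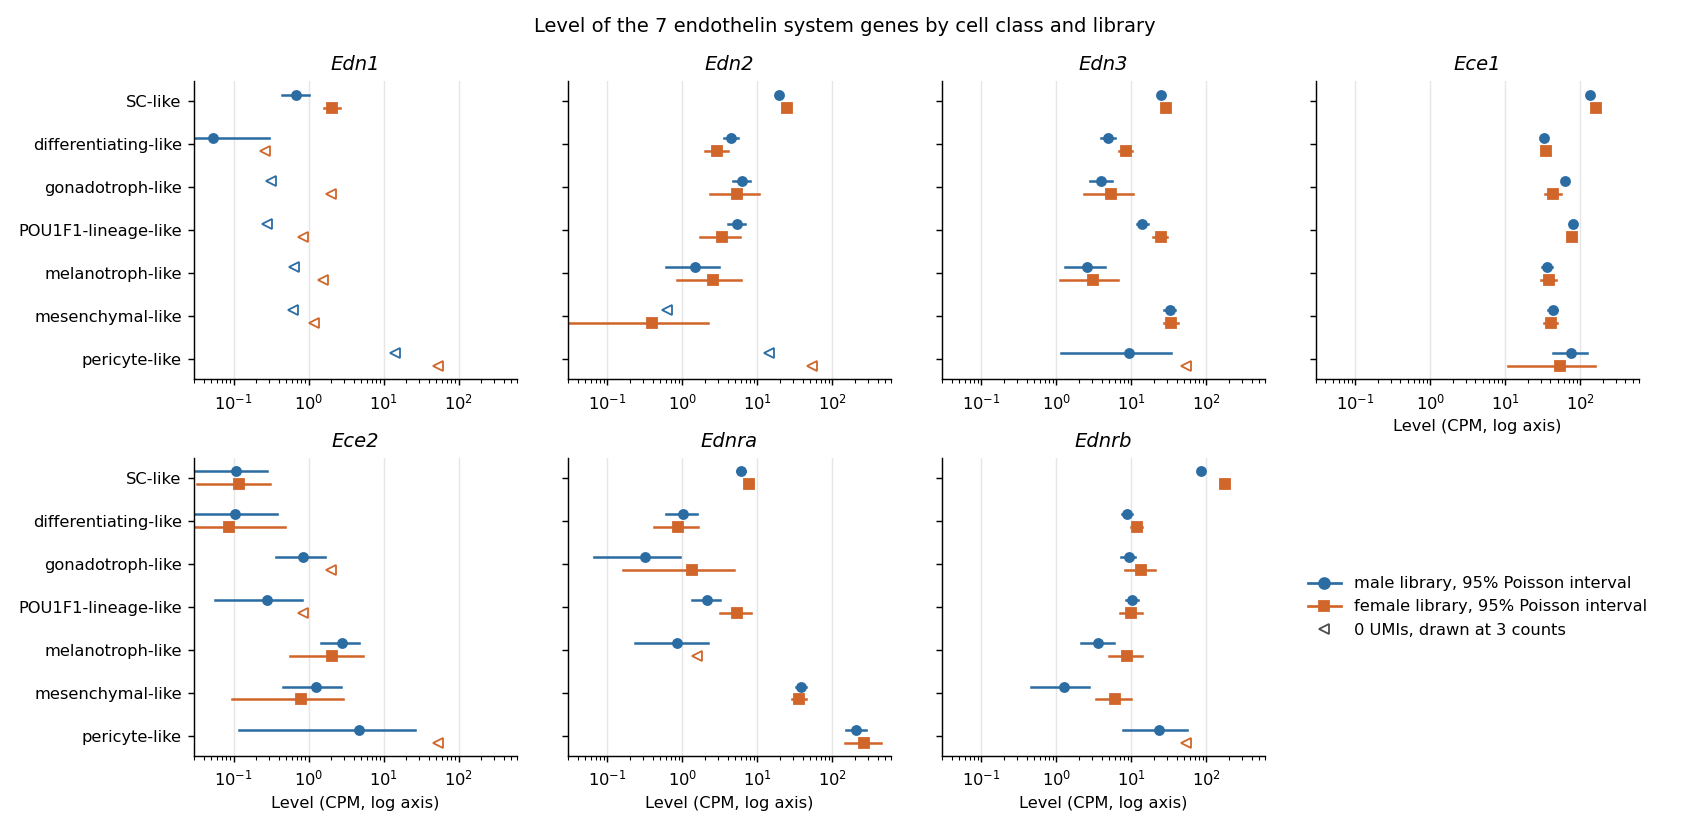
Level of each of the 7 genes in CPM on a log axis, by cell class, with 1 point per library (circles male, squares female) and lines for exact 95% Poisson intervals; open triangles stand for 0 UMIs and are drawn at 3 counts. *Ednrb* stands highest in SC-like cells, at 83.8 CPM in male and 177 CPM in female cells, and *Ednra* in pericyte-like cells, at 206.6 and 265 CPM.

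Of the ligands, *Edn1* was close to the limit of detection. It had 27 UMIs in 21 cells of the male library and 74 UMIs in 55 cells of the female library. SC-like cells accounted for 25 male and 69 female UMIs, which gave levels of 0.681 CPM (0.441–1.005) and 2.06 CPM (1.60–2.61). The gene, which encodes a vasoconstrictor best known from endothelium, could not be followed there, as endothelial cells were nearly absent from the sort. Among the other classes with at least 50 cells in both libraries there was 1 UMI in all, in a male differentiating-like cell. With 3 UMIs taken as the limit that a count of 0 allows, SC-like cells were at least 1.07-fold higher than male melanotroph-like and at least 1.02-fold higher than female gonadotroph-like cells. The limits of these classes, 0.639 and 2.02 CPM, and that of male mesenchymal-like cells, 0.630 CPM, lie inside the SC-like intervals, so the lead of SC-like cells over them was not resolved at this depth. Only 0.339% of male and 0.723% of female SC-like cells had an *Edn1* UMI after thinning (0.613% and 1.51% unthinned).

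*Edn2* was a ligand of SC-like cells. Its level there was 19.3 CPM (17.9–20.7) in male and 25.0 CPM (23.3–26.7) in female cells. In mesenchymal-like cells it had no UMI in the male library, where SC-like cells were at least 30.6-fold higher (against 3 counts in the mesenchymal-like cells of that library), and 1 UMI in the female library, a ratio of 62.8 (10.5–2654). Differentiating-like cells were intermediate, at 4.48 and 2.88 CPM, which SC-like cells exceeded 4.30 times (3.23–5.80) and 8.67 times (5.77–13.5), or 7.28 and 20.4 times with Leiden clusters. The endocrine classes ranged from 1.49 CPM in male melanotroph-like cells to 6.19 CPM in male gonadotroph-like cells. Below SC-like cells the intervals of gonadotroph-like, POU1F1-lineage-like and differentiating-like cells overlapped from one to the next in both libraries, so their order is not resolved.

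*Edn2* was spread over few cells. After thinning, 4.56% (3.80–5.43) of male and 5.78% (4.997–6.65) of female SC-like cells had an *Edn2* UMI, against 7.45% and 7.60% before thinning and 0.368% of female mesenchymal-like cells after it. Cells with at least 5 *Edn2* UMIs, 44 of 3101 male and 60 of 3304 female SC-like cells, held 59.0% and 61.5% of the *Edn2* UMIs of the class. The richest male cell had 26 UMIs and the richest female cell 19. Cells with *Edn2* had a mean of 3.07 and 3.34 UMIs of it, whereas cells with *Edn3* had 1.39 and 1.33. The corresponding share of *Edn3* UMIs in cells with at least 5 was 3.69% and 2.91%.

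The *Edn2*-rich cells were not marked out by the other endothelin genes. SC-like cells with at least 3 *Edn2* UMIs after thinning numbered 27 male and 50 female ones. Their *Ednrb* level was 131 CPM (94.6–177) in the male library against 81.3 CPM (78.3–84.4) in cells with no *Edn2* UMI, but 141 CPM (110.5–177) against 175 CPM (171–180.1) in the female library, so the direction was not the same. *Edn3* and *Ece1* lay within the intervals of the *Edn2*-rich cells in both libraries. Cycling cells made up 22.2% and 10% of the *Edn2*-rich cells and 26.5% and 18.2% of those with no *Edn2* UMI, with overlapping intervals in both libraries. Scrublet marked 0 and 2 of them as doublets.

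*Edn3*, the partner of EDNRB in neural crest development, came from more classes than the other ligands. It was at 32.4 CPM (27.4–37.9) in male and 33.9 CPM (27.0–41.9) in female mesenchymal-like cells, whereas SC-like cells had 25.1 CPM (23.5–26.7) and 28.8 CPM (27.0–30.7). The mesenchymal-like level was 1.29 times the SC-like one in the male library (1.03–1.61) and 1.18 times in the female library, where the limits of 0.882 to 1.55 include 1. POU1F1-lineage-like cells followed, at 14.0 CPM (11.9–16.4) and 24.5 CPM (19.7–30.2). Hence cells of the stem compartment, the connective tissue and 1 endocrine lineage all held *Edn3* RNA.

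Other hormone-producing classes had little *Edn3*. Gonadotroph-like cells were at 3.95 and 5.39 CPM and melanotroph-like cells at 2.56 and 3.09 CPM, with overlapping intervals. POU1F1-lineage-like cells were 3.56 (2.19–5.92) and 4.55 (1.85–12.99) times higher than gonadotroph-like cells. Without marked doublets the male gonadotroph-like level was 1.94 CPM (1.09–3.21), on 15 instead of 37 UMIs, and the male ratio 6.84. POU1F1-lineage-like cells were also 2.86 (1.98–4.15) and 2.93 (1.92–4.45) times higher than differentiating-like cells, in which *Edn3* was at 4.91 and 8.38 CPM. Within the POU1F1 lineage, cells without abundant *Prl* or *Gh* were 549 of 664 male and 222 of 255 female ones. Their *Edn3* level, 15.9 CPM (13.4–18.8) and 26.5 CPM (20.99–33.0), was close to that of the whole class. *Gh*-rich cells had 9.53 CPM in the male library (13 UMIs) and 6.24 CPM in the female library (3 UMIs). *Prl*-positive cells had 4.03 CPM in the male library (4 UMIs in 62 cells), and the 5 UMIs of the female library, 58.1 CPM (18.9–135.5), came from 1 of 6 cells. After thinning, 12.99% of male and 15.1% of female mesenchymal-like cells, 10.4% and 12.95% of SC-like cells and 1.11% and 1.84% of melanotroph-like cells had an *Edn3* UMI (17.6% and 21.5%, 21.4% and 22.0%, 3.95% and 3.67% unthinned). The melanotroph-like share, at median depths of 16967 and 16141 UMIs, serves as the background for *Edn3*, against medians of 7743 and 7622 UMIs in mesenchymal-like and 9489 and 8980 UMIs in SC-like cells.

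Of the converting enzymes, *Ece1* was found in every class and was highest in SC-like cells. Its level there was 133 CPM (130–137) in male and 164 CPM (160.0–169) in female cells, and 46.7% and 52.8% of SC-like cells had an *Ece1* UMI after thinning (65.1% and 72.9% unthinned). POU1F1-lineage-like cells came next, at 79.0 and 78.0 CPM, and then gonadotroph-like cells at 63.3 and 43.8 CPM. Mesenchymal-like cells, the other source of *Edn3*, had 43.3 and 40.2 CPM, so SC-like cells exceeded them 3.08-fold (2.61–3.65) and 4.09-fold (3.27–5.15). Differentiating-like cells had 33.0 CPM (30.5–35.7) and 34.5 CPM (31.2–38.1) and melanotroph-like cells 36.4 CPM (31.2–42.3) and 38.1 CPM (29.9–47.8), so the order of the lowest classes is not resolved. After thinning, 11.3% and 14.4% of differentiating-like and 19.3% and 12.8% of melanotroph-like cells had an *Ece1* UMI. The gap between SC-like and differentiating-like cells was 4.04-fold (3.63–4.50) and 4.76-fold (4.20–5.41).

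*Ece2*, which encodes the neuroendocrine member of the enzyme pair, had 40 UMIs in the whole male and 11 in the whole female library. Melanotroph-like cells held 13 and 4 of them, at 2.77 CPM (1.47–4.73) and 2.06 CPM (0.561–5.27). In the male library the next class, mesenchymal-like cells at 1.26 CPM (0.463–2.74), had an interval that overlapped. SC-like cells had 4 UMIs in each library. The *Ece2* counts are uncertain, as the gene model *Gm49333* overlaps it on the same strand and reads common to both are not counted for either, and *Gm49333* itself had no UMI in any class.

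The receptors divided the classes between them. *Ednrb* was the receptor of SC-like cells, at 83.8 CPM (80.9–86.9) in male and 177 CPM (173–182) in female cells. These cells held 75.2% of all *Ednrb* UMIs of the male and 89.0% of the female library. Levels in the differentiating-like and endocrine classes were far lower, from 8.86 CPM in male differentiating-like cells and 9.17 CPM in male gonadotroph-like cells to 13.5 CPM in female gonadotroph-like cells, with 3.62 and 8.75 CPM in melanotroph-like cells. Mesenchymal-like cells had the lowest measured level, at 1.26 CPM (0.463–2.74) and 5.97 CPM (3.34–9.85), with intervals that overlapped the melanotroph-like ones. SC-like cells exceeded them 66.5-fold (29.5–188) in the male and 29.7-fold (17.5–54.4) in the female library. With Leiden clusters in place of marker counts this ratio was 9.79 and 11.3, and without cells marked as doublets it was 131 and 55.4.

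After thinning, 26.5% (24.8–28.2) of male and 45.0% (43.3–46.8) of female SC-like cells had an *Ednrb* UMI (41.5% and 58.5% unthinned). In mesenchymal-like cells, taken as the background, the share was 0.433% and 2.21%. The differentiating-like share was 2.47% and 3.31% and the gonadotroph-like share 2.01% and 5.32%. Thus few cells of the differentiating-like and gonadotroph-like classes had the receptor's RNA in view. Below SC-like cells the intervals of POU1F1-lineage-like, gonadotroph-like and differentiating-like cells overlapped in both libraries.

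Part of the *Ednrb* outside SC-like cells lay in cells that Scrublet marked as doublets, a comparison made after the levels were seen. Without them the level was 83.9 and 179 CPM in SC-like cells, about as before. In gonadotroph-like cells it was 3.498 CPM (2.31–5.09) and 5.98 CPM (2.58–11.8), and in POU1F1-lineage-like cells 5.52 CPM (4.11–7.25) and 4.25 CPM (2.26–7.26). The melanotroph-like level was 0.482 CPM in male and 2.73 CPM in female cells. Differentiating-like cells kept 6.58 CPM (5.42–7.91) and 6.68 CPM (5.20–8.45). Doublets marked in these classes ranged from 3.67% of female to 11.9% of male melanotroph-like cells, against 2.71% and 3.39% of SC-like cells.

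**Figure D2:**
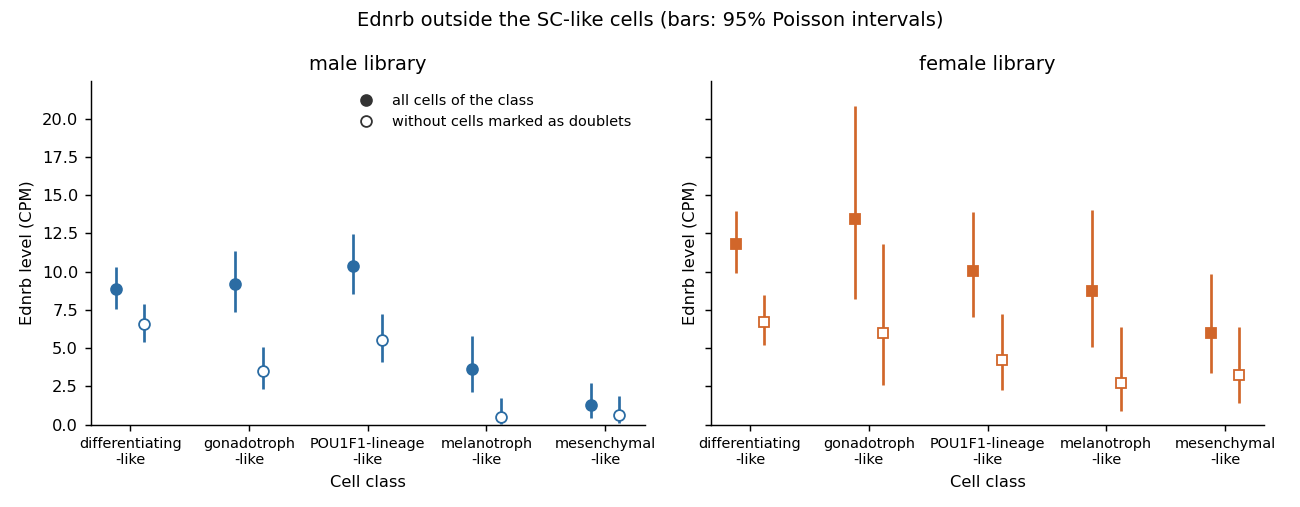
*Ednrb* level in CPM in the classes other than SC-like cells, male library left and female library right, for all cells of a class (filled) and without cells that Scrublet marked as doublets (open); bars are exact 95% Poisson intervals. Every open symbol lies below its filled one, as in male gonadotroph-like cells at 3.498 against 9.17 CPM. Only without marked doublets do differentiating-like cells have the highest measured level of these classes in both libraries. Their intervals then overlap those of the next class, so this lead is not resolved.

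*Ednra*, the receptor of vascular smooth muscle, was highest in pericyte-like cells, which line small vessels. These had 44 UMIs in 24 of 29 male cells and 15 UMIs in 6 of 7 female cells, at 206.6 CPM (150.1–277) and 265 CPM (148–437). Mesenchymal-like cells followed at 38.2 CPM (32.9–44.2) and 35.8 CPM (28.8–44.0), so the pericyte-like level was 5.40 (3.40–8.44) and 7.40 (3.37–15.2) times higher. The pericyte-like class rests on few cells, and none of them was marked as a doublet.

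SC-like cells had a low *Ednra* level of 6.07 CPM (5.30–6.92) and 7.68 CPM (6.77–8.67), 6.30 times (4.75–8.34) and 4.67 times (3.32–6.51) below mesenchymal-like cells. After thinning, 18.6% and 19.9% of mesenchymal-like cells and 3.39% and 4.24% of SC-like cells had an *Ednra* UMI (25.4% and 25.3%, 6.64% and 7.203% unthinned). In differentiating-like cells the share was 0.319% and 0.354%, and the level 1.002 and 0.873 CPM. The POU1F1 lineage had 2.12 and 5.29 CPM, of which *Gh*-rich cells had 3.67 CPM in the male (5 UMIs in 3 of 53 cells) and 22.9 CPM in the female library (11 UMIs in 6 of 27 cells). Scrublet marked 14.8% of these female and 7.55% of these male *Gh*-rich cells, and the part of doublets in the difference was not tested. The mesenchymal-like cells with a *Tcf21* UMI had about the level of the whole class, at 38.6 and 35.0 CPM.

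The 11 male pituicyte-like cells had 6 *Ednra*, 5 *Ednrb* and 5 *Ece1* UMIs and no *Edn1*, *Edn2* or *Edn3* UMI. With 3 counts equal to 20.6 CPM in so few cells, the ligands were not detectable at this depth at the levels that SC-like cells had of *Edn2*, and no class of these cells existed in the female library. Pericyte-like cells had 5 male *Ednrb* UMIs and none in the female library, 2 male *Edn3* UMIs, and 75.1 and 53.0 CPM of *Ece1*.

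To set the members against the rest of the transcriptome, each comparison was repeated for all genes with at least 50 UMIs over both classes in each library, a minimum that *Edn1* and *Ece2* did not reach. Among 13017 genes, 15.4% were at least 2-fold higher in SC-like than in differentiating-like cells in both libraries, and so were 5 of the 5 members tested: *Edn2*, *Edn3*, *Ece1*, *Ednra* and *Ednrb*. Against mesenchymal-like cells, 17.3% of 12813 genes were at least 2-fold higher in SC-like cells, and so were 3 of 5 members, namely *Edn2*, *Ece1* and *Ednrb*. In the opposite direction 9.92% of genes were at least 2-fold higher in mesenchymal-like cells, and *Ednra* was the only member of 5 that was. These counts are descriptions, since cells of 1 library are not replicates.

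Along differentiation, all 5 of these members were lower in *Lef1*-positive cells. Early differentiating-like cells (187 and 120) had no late marker and at least 2 early markers (*Dll1*, *Mycl*, *Myb*, *Scx*, *Cdkn1a*). Late differentiating-like cells (614 and 437) had at least 2 late markers (*Smoc2*, *Pou3f4*, *Shh*, *C1ql2*), whatever their early markers. These are cuts on a count and not cell types, and cells outside both cuts were left out. *Ednrb* was at 20.9 CPM (15.8–27.2) and 19.95 CPM (13.4–28.7) in early cells and at 6.404 CPM (4.88–8.26) and 9.79 CPM (7.49–12.6) in late cells. In early cells the female to male ratio was 0.954 (0.492–1.81), and its difference from the ratio in SC-like cells, given further on, was not tested.

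*Ece1* and the ligands took the same order. *Ece1* was at 80.7 and 74.3 CPM in early and 23.8 and 25.1 CPM in late cells, with intervals that did not overlap in either library. *Edn2* went from 11.6 and 11.01 CPM in early cells to 3.69 and 1.45 CPM in late cells, and *Edn3* from 13.4 and 18.6 CPM to 3.26 and 5.30 CPM. The early *Edn2* UMIs of the female library came from 2 of 120 cells, and those of the male library from 8 of 187. Scrublet marked 7.49% and 9.17% of the early and 7.33% and 5.49% of the late cells, and the part of doublets in these levels was not tested.

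**Figure D3:**
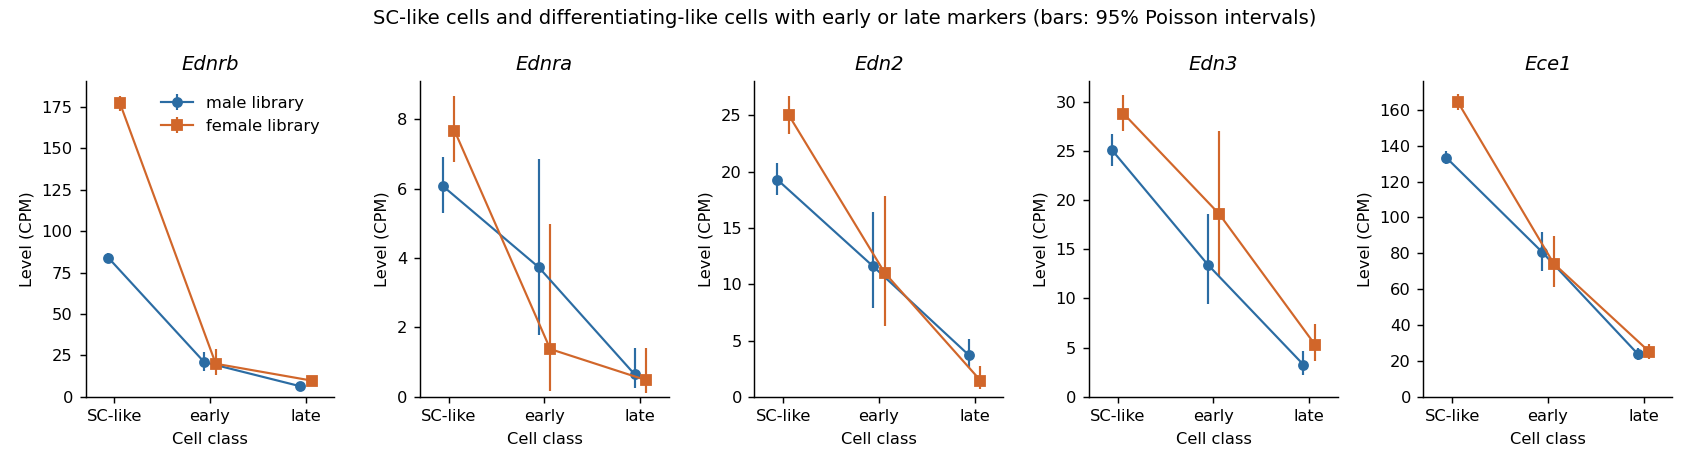
Levels of *Ednrb*, *Ednra*, *Edn2*, *Edn3* and *Ece1* in CPM in SC-like cells and in differentiating-like cells with early or late markers, male (circles) and female (squares) libraries, with exact 95% Poisson intervals. Each gene has its highest measured level in SC-like and its lowest in late cells in both libraries, and *Ednrb* falls from 177 to 9.79 CPM in the female library. The female *Ednra* levels of early and late cells, 1.38 and 0.482 CPM, rest on at most 3 UMIs each, so their order is not resolved.

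The classes are set in part by *Lef1*, so its UMIs give a finer description of the same cells and not a separate comparison. Over SC-like, differentiating-like and unassigned epithelial cells thinned to 5000 UMIs, *Ednrb* was at 59.2 CPM (57.2–61.3) in male and 142 CPM (139–146) in female cells with no *Lef1* UMI. With 1 *Lef1* UMI it was at 8.73 CPM (6.74–11.1) and 12.9 CPM (9.88–16.5). With 2 or 3 it was at 1.91 CPM (0.701–4.16) and 5.64 CPM (3.16–9.30). *Ednra* had 262 and 288 UMIs in cells with no *Lef1* UMI, which were 83.2% and 86.5% of the cells, and 6 and 5 in all cells with one. Its level was 4.7 and 6.54 CPM with no *Lef1* UMI, and 0.537 CPM (0.1464–1.375) and 0.82 CPM (0.2225–2.091) with 1. Male *Edn2* did not keep this order, at 15.3, 3.49 (2.28–5.12) and 7.01 CPM (4.39–10.6) with 0, 1 and 2 or 3 *Lef1* UMIs.

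Within SC-like cells *Ednrb* ran against *Aldh1a2*, which encodes a retinaldehyde dehydrogenase of retinoic acid synthesis and was not used to choose the class. In the male library *Ednrb* went from 128 CPM (117–140.2) in cells with no *Aldh1a2* UMI at 5000 UMIs, through 99.8, 76.9 and 47.7 CPM, to 33.4 CPM (23.4–46.3) in cells with at least 11. In the female library it went from 226 CPM (215–238) through 199 and 150.1 CPM to 81.1 CPM (72.4–90.4) with 6 to 10 and 92.3 CPM (69.9–119.6) with at least 11. The last female bin held 59 cells. The genes were nevertheless often found in the same cell: 22.1% of male and 33.9% of female SC-like cells had UMIs of both after thinning, 4.41% and 11.1% of *Ednrb* alone, 65.7% and 44.7% of *Aldh1a2* alone, and 7.84% and 10.3% of neither.

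*Ece1* went the other way, from 105 CPM (95.3–116) to 166 CPM (143–192) in the male and from 137 CPM (128–146) to 223 CPM (188–264) in the female library between the first and the last *Aldh1a2* bin. *Edn3* also went up in the male library, from 18.0 CPM (14.0–22.8) to 34.4 CPM (24.2–47.4). In the female library *Edn3* was at 20.99 CPM with no *Aldh1a2* UMI, 33.2 CPM with 3 to 5 and 19.4 CPM in the last bin. *Edn2* lay between 15.8 and 21.7 CPM in all male bins. In the female library it lay between 21.4 and 29.9 CPM in the first 4 bins and at 64.8 CPM (46.3–88.2) in the last, on 40 UMIs. After thinning, 10.2% (3.82–20.8) of the 59 cells of that bin had an *Edn2* UMI. This interval overlaps those of all other female bins, so a higher share of cells with *Edn2* there was not resolved. Hence the converting enzyme and the receptor had opposite orders along the same gene.

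**Figure D4:**
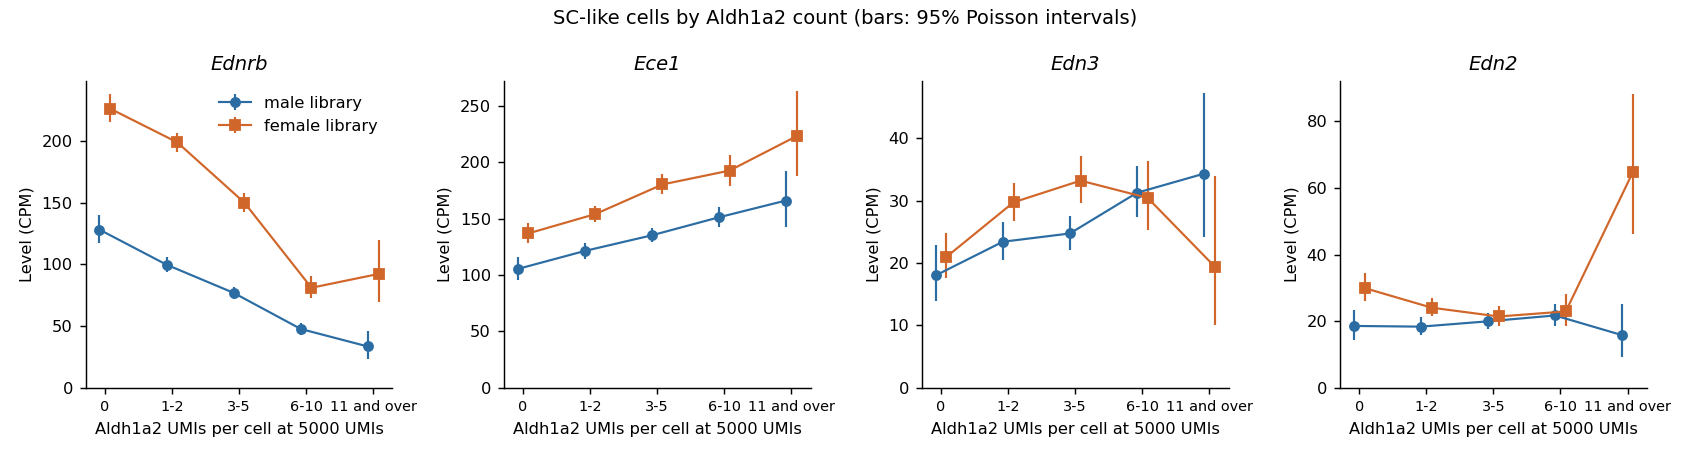
Levels of *Ednrb*, *Ece1*, *Edn3* and *Edn2* in CPM in SC-like cells of the male (circles) and female (squares) libraries, by the number of *Aldh1a2* UMIs per cell after thinning to 5000 UMIs; bars are exact 95% Poisson intervals. *Ednrb* goes down from 128 to 33.4 CPM and *Ece1* up from 105 to 166 CPM in the male library.

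Cycling SC-like cells, with at least 2 of 8 proliferation markers, numbered 1043 male and 758 female ones. The levels of both receptors were lower in them. *Ednrb* was at 78.1 CPM (74.1–82.3) against 89.4 CPM (85.1–93.8) in the other male cells and at 153 CPM (146–161) against 188 CPM (183–194) in the other female cells. *Ednra* was at 4.76 CPM (3.81–5.88) against 7.34 CPM (6.16–8.67) and at 4.51 CPM (3.32–5.98) against 9.15 CPM (7.95–10.5). *Ece1* was likewise lower, at 125.5 against 141 CPM and 140.4 against 175.5 CPM. The share of cells with an *Ednrb* UMI after thinning had no such order, with 25.99% (23.2–28.9) of cycling and 26.7% (24.6–28.9) of other male cells and 46.9% (43.2–50.5) of cycling and 44.4% (42.4–46.4) of other female cells. Cycling cells had median depths of 14521 and 12438 UMIs, and the other SC-like cells 8507 and 8444.

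Ligand, enzyme and receptor RNAs were found in the same SC-like cells about as often as the product of their shares gives. After thinning, *Ednrb* and *Edn3* were found together in 3.05% (2.43–3.78) of male and 5.91% (5.11–6.79) of female SC-like cells, where the products were 2.75% and 5.83%. A ligand, *Ece1* and a receptor were found together in 2.15% (1.63–2.78) and 4.53% (3.83–5.31), where the products were 1.99% and 4.63%. *Edn2* and *Edn3* met in 0.490% and 0.723% of cells, with products of 0.475% and 0.749%. *Ednrb* and *Ednra* met in 0.942% and 1.92%, with products of 0.898% and 1.91%. In mesenchymal-like cells *Ednra* and *Ece1* met in 4.98% (3.18–7.38) and 4.78% (2.57–8.03), with products of 3.55% and 2.99%, both inside the intervals. Detection of 1 UMI at this depth leaves many cells with a transcript unseen.

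Between the sexes, *Ednrb* and *Edn1* differed most in SC-like cells. The female *Ednrb* level was 2.11 times the male one (1.99–2.25), and it was 1.96 times (1.77–2.17) in cycling and 2.11 times (1.95–2.28) in other SC-like cells. The *Edn1* ratio was 3.03 (1.60–5.92), on 69 and 25 UMIs. Of 13683 genes with at least 50 UMIs in the SC-like cells of both libraries together, which left out *Ece2*, 3.5% were at least 1.5-fold higher in the female library, and so were 2 of the 6 members tested, *Edn1* and *Ednrb*. At least 1.5-fold higher in the male library were 3.7% of genes and 0 of the 6 members.

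The remaining members differed less between the libraries. In SC-like cells *Edn2* was 1.30 times higher in the female library (1.12–1.496), *Ece1* 1.23 times (1.17–1.30) and *Edn3* 1.15 times (1.01–1.31). For *Ednra* the ratio was 1.26, with limits of 0.977 to 1.64 that include 1. The *Edn2* ratio was 1.02 (0.809–1.28) in cycling and 1.59 (1.31–1.93) in other SC-like cells, a difference that was not tested. These limits treat each UMI as independent, whereas 59.0% and 61.5% of the SC-like *Edn2* UMIs lay in 44 male and 60 female cells. They are therefore too narrow for *Edn2*. Cells with at least 5 UMIs of the gene also held 37.1% and 48.6% of the SC-like *Ednrb* UMIs, in 144 male and 377 female cells. For *Ece1* such cells held 30.9% and 24.8%, in 225 cells of each library. The limits of the *Ednrb* and *Ece1* ratios may thus be too narrow as well. The shares of SC-like cells with an *Edn2* UMI after thinning, 4.56% (3.80–5.43) and 5.78% (4.997–6.65), had overlapping intervals.

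Outside SC-like cells, *Edn3* was higher in the female library in POU1F1-lineage-like cells, by 1.75 times (1.196–2.54), and in differentiating-like cells, by 1.71 times (1.13–2.59), or 1.11 times with classes set after thinning. *Ece1* was lower in female gonadotroph-like cells, at 0.691 of the male level (0.492–0.956). The ratio was 0.668 (0.365–1.15) in those with a *Gnrhr* or *Lhb* UMI and 0.849 (0.538–1.32) in the others, with limits that include 1. Cells with a *Gnrhr* or *Lhb* UMI were 338 of 575 male and 25 of 95 female ones. The part of this composition in the ratio was not tested. The levels of *Ednra* and *Edn3* in mesenchymal-like cells had female to male ratios of 0.937 (0.652–1.34) and 1.05 (0.714–1.53). The *Ednrb* ratio in mesenchymal-like cells, 4.74 (1.22–21.3), rests on 15 and 6 UMIs, at most 7 of them in 1 cell, and these cells set the background for the gene.

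**Figure D5:**
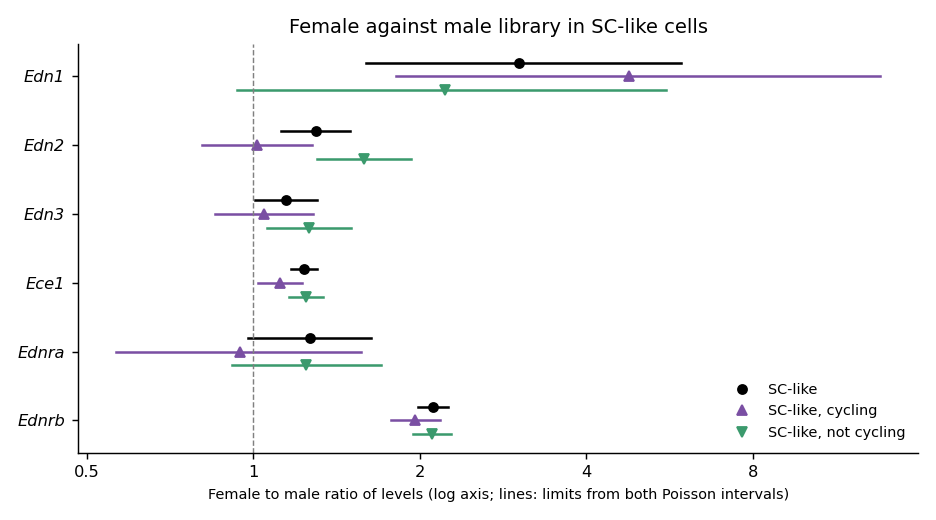
Female to male ratio of the level of 6 genes in SC-like cells, in all of them (black), in cycling cells (purple) and in the others (green), on a log axis with the limits from both Poisson intervals; the dashed line marks equal levels. *Ednrb* is higher in the female library in all these sets, at 2.11, 1.96 and 2.11, whereas the *Edn2* ratio is 1.02 in cycling and 1.59 in other cells. The limits do not allow for UMIs that lie together in few cells, as many of *Edn2* and a smaller share of *Ednrb* and *Ece1* do.

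The wider pathway was read from gene lists ordered by role. Of 8 genes of endothelin processing and breakdown, 4 reached 20 CPM in a class in both libraries, among the 6 classes with at least 50 cells in each. *Furin*, which cuts the precursors, was highest in mesenchymal-like cells at 31.3 and 36.2 CPM, with 22.4 and 23.7 CPM in SC-like cells. *Pcsk5*, a related convertase, was at 34.0 and 33.5 CPM in mesenchymal-like and 3.98 and 3.88 CPM in SC-like cells. The matrix metalloprotease gene *Mmp2* was at 213 and 214 CPM in mesenchymal-like cells. *Mme*, which encodes neprilysin, an endopeptidase that degrades endothelins, was highest in melanotroph-like cells in the male library (41.7 CPM) and in SC-like cells in the female library (49.2 CPM), with 24.8 CPM in male SC-like and 31.9 CPM in female melanotroph-like cells.

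Of 21 gene symbols of receptor signalling, 20 were found among the features, and 13 reached 20 CPM in the same 6 classes. The symbol not found, *Adrbk1*, is an older one for *Grk2*, which was found. Mesenchymal-like cells had the highest level of 6 of the 13 in both libraries, SC-like cells of 2, and gonadotroph-like and melanotroph-like cells of 1 each, while 3 differed between the libraries. Of all 7903 genes that reached 20 CPM, mesenchymal-like cells led for 22.3% and SC-like cells for 13.8%, and 27% differed, so these counts are descriptions of a short list. *Rgs2*, a regulator that speeds the shut-off of Gq proteins, was at 665 and 622 CPM in SC-like cells and at 27.7 and 23.9 CPM in mesenchymal-like cells. *Rgs3* was at 38.5 and 28.2 CPM in SC-like cells, the highest of the 6 classes, and at 46.96 and 70.7 CPM in the few pericyte-like cells. *Itpr1*, the channel that releases calcium after Gq signalling, was at 109 and 90.4 CPM in mesenchymal-like and 21.8 and 24.2 CPM in SC-like cells. Of the other genes led by mesenchymal-like cells among the 6 classes, *Gna12* (39.3 and 44.2 CPM) and *Gnai2* (395 and 368 CPM) had intervals apart from the next class in both libraries. The few pericyte-like cells measured higher, at 46.96 and 53.03 CPM of *Gna12* and 521 and 548 CPM of *Gnai2*. In the female pericyte-like cells 53.03 CPM is 3 counts, and these leads were not tested against counting error. The lead was not resolved for *Gna13* and *Itpr2* in either library, nor for *Prkca* in the female library. *Gnaq*, the Gq alpha subunit gene, was highest in melanotroph-like cells at 89.9 and 95.2 CPM, and was at 44.5 and 44.7 CPM in SC-like cells. *Rgs4* was highest in gonadotroph-like cells at 32.7 and 21.6 CPM among these classes, and stood at 178 and 230 CPM in the few pericyte-like cells. For *Gna11*, *Plcb4* and *Grk2* the leading class was not the same in both libraries.

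The genes most like each receptor were ranked by the Pearson correlation of log2(CPM + 1) over the 12 points of 6 classes in 2 libraries, among 4290 genes with at least 50 CPM in a class in both libraries. For *Ednrb* these were *Cab39l* (r = 0.943), *Gclc* (0.930), *Lhfpl1* (0.926), *Dctn6* (0.920) and *Frmd4b* (0.915). Of these, *Gclc* encodes the catalytic subunit that starts glutathione synthesis. For *Ednra* they were *Slc39a1* (0.982), *Col4a5* (0.981), *Sparc* (0.980), *Efemp2* (0.979) and *Cnn2* (0.978), among them a collagen chain of basement membranes and matrix proteins. Points of 1 library share its depth and preparation, so these correlations are descriptions. Among the members, *Edn2* had r = 0.924 with *Ednrb* and *Edn3* had r = 0.889 with *Ednra* over the same points, against 0.275 for *Edn3* with *Ednrb*. *Edn1* and *Ece1*, like *Edn2* highest in SC-like cells, had r = 0.878 and 0.808 with *Ednrb*. *Ednra* and *Ece2* had r = -0.0452 and -0.545 with it.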

How the data were processed

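The deposited matrices hold UMI counts per gene and cell, not normalized, which the authors made from 10x Genomics 3′ libraries with Cell Ranger 3.0.2 and an mm10 transcriptome. The submitters' processing notes also name R 3.6.0 and Seurat. After the study's methods, barcodes with fewer than 50 genes or a mitochondrial share over 3 SD above the mean (20.38% for male and 26.12% for female cells) were removed, 159 and 85 barcodes, which left 105883748 and 62830305 UMIs.

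The 7 members and all marker and pathway lists were chosen with earlier results of these data known. Class thresholds were set on marker UMIs alone. SC-like cells had *Sox2*, at least 3 of 7 SC markers, at least 2 epithelial markers, no *Lef1* UMI and at most 2 differentiating markers. Differentiating-like cells had *Lef1*, at least 3 of 9 differentiating markers and at least 2 epithelial ones. Gonadotroph-like cells had at least 10 *Cga* UMIs and 2 other markers, and POU1F1-lineage-like cells at least 3 *Pou1f1* UMIs. Melanotroph-like cells had at least 50 *Pomc* UMIs and at least 2 of 4 others, with *Pax7* or *Oacyl* among them. *Gh*-rich cells had at least 100 *Gh* UMIs and *Prl*-positive cells at least 5 *Prl* UMIs. Mesenchymal-like, pericyte-like and pituicyte-like cells had at least 5 of 8, 3 of 5 and 4 of 7 markers. The cuts lie within continuous counts: 822 male and 719 female SC-like cells had exactly 3 SC markers.

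Levels are summed UMIs scaled to 1000000 (CPM) with exact Poisson intervals, and ratio limits combine the bounds of both levels. Cells were thinned without replacement, which left out 3627 male and 287 female cells under 5000 UMIs. Doublets were scored with Scrublet (Scanpy 1.11.5), and those with the highest scores, 0.8% per 1000 cells kept, were marked in each library but kept in the main values. The named genes are the members, pathway genes with at least 20 CPM in a class in both libraries, and the 5 most correlated with each receptor. Python 3.11.15, NumPy 2.4.6, SciPy 1.17.1, pandas 2.3.3 and Biopython 1.88 were used. Thinning and ratio limits were tested on simulated data. No differential test was run, since there was 1 library per sex. Alternatives were other gene minimums, removal of marked doublets, stricter or thinned gates, Leiden clusters (20 components, 2000 genes, resolution 1.5, members left out), the mean of each cell's CPM, and thinning to 3000 UMIs.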

Additional observations from a re-analysis of the deposited data

Results flagged for a closer look

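The female to male ratio of *Ece1* lay on opposite sides of 1 in SC-like cells (1.23, limits 1.17 to 1.30) and in gonadotroph-like cells (0.691, limits 0.492 to 0.956). The difference between these ratios was not tested, since each sex is 1 library. The gonadotroph-like values rest on 594 male and 65 female *Ece1* UMIs. In gonadotroph-like cells with a *Gnrhr* or *Lhb* UMI the ratio was 0.668 and in the others 0.849, and both limits included 1. Without cells marked as doublets the gonadotroph-like levels were 58.3 and 36.6 CPM.

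Barcodes that the filter on mitochondrial share removed still held UMIs of the members above 3 counts. There were 28 *Ece1* UMIs and 9 *Ednrb* UMIs in the 159 removed male barcodes, which had a median of 776 UMIs, and 8 *Ece1* UMIs in the 85 removed female barcodes, which had a median of 639 UMIs. The corresponding levels were 179 CPM (119.2 to 259) of *Ece1* and 57.6 CPM (26.4 to 109) of *Ednrb* in the male and 119 CPM (51.2 to 234) of *Ece1* in the female barcodes. *Edn1* and *Ednra* had no UMI in them.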

How the results depend on the processing

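Of the ratios given, 10 were recomputed under every alternative from the start and 21 more after they had been seen, and none whose limits exclude 1 turned direction. Of the 167 values of these 21, 150 stayed within their limits, and with the gate after thinning the ratios of *Edn2* between SC-like and differentiating-like cells were 7.24 and 26.4, those of *Edn3* between POU1F1-lineage-like and differentiating-like cells 4.71 and 9.54, and the female to male ratio of *Edn3* in differentiating-like cells 1.11. The *Edn2* ratio of female SC-like to mesenchymal-like cells had no value with 1 more marker for each class, where the latter had no *Edn2* UMI. The *Ednrb* ratio of SC-like to mesenchymal-like cells moved outside its limits with Leiden clusters, to 9.79 for male and 11.3 for female cells, and without marked doublets, to 55.4 in the female library. The female to male ratio of *Ednrb* in SC-like cells was 2.26 with the gate applied after thinning, 2.27 with Leiden clusters and 1.96 as a mean of each cell's CPM. The causes were not tested. The *Ednra* ratio of mesenchymal-like to SC-like cells lay between 5.06 and 6.57 for male and between 4.20 and 4.86 for female cells over all alternatives. Of 112 levels recomputed in each member's highest class, 101 stayed within their intervals, 3 moved up and 8 down, by at most 1.42-fold. Shares after thinning to 3000 UMIs fell below their intervals in 12 of 14 cases, as fewer UMIs per cell were kept. Removing marked doublets lowered 9 of 10 *Ednrb* levels outside SC-like cells past their intervals, an alternative added after the levels were seen. No paired analysis was possible because there is 1 library per sex. Depth limits *Edn1*, *Ece2* and the classes of under 50 cells most.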

Other observations

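Cells that met no class also held endothelin RNAs. The 3729 such male cells had a median of 1433 UMIs, and 2858 of them had under 5000, whereas the 759 female ones had a median of 9536. Their *Ednrb* level was 34.1 CPM (31.3 to 37) in the male and 63.01 CPM (57.5 to 68.9) in the female library, between the SC-like and the differentiating-like levels. *Ece1* was at 85.7 and 91.5 CPM, *Edn3* at 15.6 and 12.99 CPM, *Edn2* at 10.5 and 10.8 CPM and *Ednra* at 3.61 and 3.898 CPM. Among these cells, 1161 male and 516 female ones had *Sox2* and at least 2 epithelial markers but failed another condition of the SC-like class. The single cell with the most *Ednrb*, 46 UMIs, was a female cell in no class.

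The cells with markers of several classes, 172 male and 34 female, had 77.5 and 98.8 CPM of *Ece1* and 14.9 and 29.2 CPM of *Edn3*. Scrublet marked 51.7% and 73.5% of them as doublets.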
